A study of Mus musculus with 6 samples.

Results

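The genes described here are the zinc finger genes whose symbols run from Zfp500 upward. They were taken by symbol alone, as every protein-coding gene of chromosomes 1 to 19 in GENCODE mouse release 21 named Zfp with a 3-digit number from 500 on, and no peak value entered the choice. The choice gave 202 of 20807 genes. H3K79me2, histone H3 dimethylated at lysine 79, was mapped by ChIP-seq. N2a, a mouse neuroblastoma line in wide use, supplied the cells. The cells were transfected with a plasmid carrying a non-targeting hairpin (shControl, the CTR group) or 1 hairpin against the mRNA of Npm1 (shNpm1, the NPM1 KD group) and kept for 3 days in vitro. Each group had 2 libraries, described as independent biological replicates. With a single hairpin, the loss of Npm1 and an effect of that hairpin on other transcripts cannot be told apart. The inputs, pooled within each group, had no peak list and were not used here. Peak lists hold no transcript levels, so the degree of the knockdown could not be checked from them.

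DOT1L, the methyltransferase of lysine 79, travels with early transcript elongation, and the mark it leaves lies just inside the 5′ part of transcribed genes and fades toward the 3′ end. C2H2 zinc finger genes are among the largest gene families of the mouse. Many encode a KRAB box at the N-terminus, which recruits the corepressor TRIM28 to silence transposable elements, followed by a row of fingers encoded in a single 3′ exon. Many of those genes lie in tandem clusters of related copies, some of them near-identical, and their 3′ zinc finger exons are known sites of H3K9me3 heterochromatin in many cell types. Other C2H2 genes have no KRAB box, often stand alone and include conserved developmental regulators, RNA-binding proteins and ribosome factors.

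The promoters of 5 members show the range within the family. They are the RefSeq sequences (GRCm38.p6, 250 bases before to 50 bases after the gene's start) with every CpG dinucleotide in capitals, since CpG content differed between marked and unmarked members. Zfp598, a ubiquitin ligase that acts on collided ribosomes, is a widely expressed gene with no KRAB box. Zfp948 and Zfp933 are KRAB-like members of 2 different clusters and both carried the mark, whereas Zfp819 and Zfp980 are KRAB-like cluster members without a broad peak in any library.
Zfp598, chr17:24669437-24669736, plus strand, 29 CpG: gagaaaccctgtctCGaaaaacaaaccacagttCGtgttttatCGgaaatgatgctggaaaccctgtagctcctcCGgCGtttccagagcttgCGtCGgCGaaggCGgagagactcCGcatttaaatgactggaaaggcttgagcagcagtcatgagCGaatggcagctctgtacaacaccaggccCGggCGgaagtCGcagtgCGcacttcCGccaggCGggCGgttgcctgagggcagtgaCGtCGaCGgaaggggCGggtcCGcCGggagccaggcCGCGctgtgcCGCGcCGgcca
Zfp948, chr17:21566728-21567027, plus strand, 10 CpG: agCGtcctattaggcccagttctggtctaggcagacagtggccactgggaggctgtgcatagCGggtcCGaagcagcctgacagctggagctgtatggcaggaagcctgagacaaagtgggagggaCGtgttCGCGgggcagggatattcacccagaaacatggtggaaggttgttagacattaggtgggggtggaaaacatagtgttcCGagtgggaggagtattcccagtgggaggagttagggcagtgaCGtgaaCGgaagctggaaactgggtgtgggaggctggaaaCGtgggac
Zfp933, chr4:147848369-147848668, minus strand, 9 CpG: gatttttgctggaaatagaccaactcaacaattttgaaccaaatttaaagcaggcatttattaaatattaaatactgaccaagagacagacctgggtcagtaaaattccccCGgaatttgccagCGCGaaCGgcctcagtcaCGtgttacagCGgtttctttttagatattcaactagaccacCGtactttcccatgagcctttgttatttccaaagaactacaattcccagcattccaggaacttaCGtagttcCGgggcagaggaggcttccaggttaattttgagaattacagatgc
Zfp819, chr7:43606919-43607218, plus strand, 20 CpG: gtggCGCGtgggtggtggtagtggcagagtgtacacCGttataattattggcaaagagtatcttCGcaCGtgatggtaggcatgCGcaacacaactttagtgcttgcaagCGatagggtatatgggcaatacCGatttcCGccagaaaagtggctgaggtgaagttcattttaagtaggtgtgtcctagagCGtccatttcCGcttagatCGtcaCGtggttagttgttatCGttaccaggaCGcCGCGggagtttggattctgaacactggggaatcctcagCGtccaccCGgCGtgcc
Zfp980, chr4:145670447-145670746, plus strand, 3 CpG: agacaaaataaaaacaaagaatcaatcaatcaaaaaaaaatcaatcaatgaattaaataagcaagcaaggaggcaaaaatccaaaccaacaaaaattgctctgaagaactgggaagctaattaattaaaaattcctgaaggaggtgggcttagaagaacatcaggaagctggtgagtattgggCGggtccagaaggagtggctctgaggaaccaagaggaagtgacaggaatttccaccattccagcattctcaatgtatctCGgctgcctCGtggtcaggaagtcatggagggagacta
A RefSeq promoter was matched by symbol for 167 of the 202 members, with a median of 12 CpG in 300 bases, against 15 over the 15703 promoters of all protein-coding genes matched. CpG-poor promoters (at most 5 CpG) made up 19.2% of the member promoters and 30.2% of all. The 109 KRAB-like members with a promoter had a median of 9 CpG and the 58 others 20.5.

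Depth is known only in relative terms, because the deposited lists give peaks and not reads. The pileup expected from background, as recovered from the narrow peaks, was 11.9, 7.65, 8.99 and 11.8 for CTR 1, CTR 2, NPM1 KD 1 and NPM1 KD 2. By this measure CTR 2 was the shallowest library, though whether the inputs entered that background is not known. The broad list of CTR 2 was also the shortest, with 34845 peaks against 44228 to 48764 in the others. Among neuroblastoma and sympathetic lineage genes, 9 carried a broad peak in all 4 libraries and Dbh in none, while none of 5 fibroblast, 4 blood and 3 liver marker genes did in any library, so the markers did not go against the label of the line.

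Most of these zinc finger genes carried H3K79me2. A gene counted as marked in a library when a broad peak covered any base of its body or of the 3 kb upstream of its start, called its window below. Marked members numbered 163 and 160 in CTR 1 and CTR 2 and 163 and 161 in NPM1 KD 1 and NPM1 KD 2. In all 4 libraries 160 members (79.2%) were marked, in none 39, and 3 lay between, against 52.5% of all protein-coding genes marked in all 4. The annotated start site, taken 1 kb to either side, was marked in all 4 libraries in 148 members (73.3%) and in 45.6% of all genes. Thus the family as a whole was marked more often than protein-coding genes at large and less often than the 156 Zfp genes numbered under 500, of which 90.4% were marked in all 4 libraries. These shares describe the lists, and no test was made on them.

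The extent of the mark varied over the whole possible range. The median share of the window under broad peaks was 38.7% and 33.9% in CTR 1 and CTR 2 and 42.8% and 39.0% in NPM1 KD 1 and NPM1 KD 2, where the medians over all genes were 5.50%, 3.85%, 7.14% and 5.56%. Among genes marked in all 4 libraries the medians were close, with 49.7% for the 160 members and 50.9% for the 10915 genes. The middle range of those 160 members ran from 27.3% to 73.3%. At the extremes, 13 members had 90% or more of their window covered and 50 had under 10%.

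The median height of the peaks was lower than over all genes, as it also was in the nearest zinc finger sets. The deposited fold of a narrow peak is its pileup over the local background at the summit. For each gene the highest fold among the narrow peaks touching its window was taken, also where the summit itself lay outside the window. The peak taken could therefore differ between libraries or belong to a neighbouring gene. Over the 166 members with a narrow peak in all 4 libraries the median was 11.8, 10.6, 12.1 and 10.8 in CTR 1, CTR 2, NPM1 KD 1 and NPM1 KD 2, against 15.2, 14.5, 15.4 and 13.1 over the 10985 genes with one. The summit lay a median of 1282, 1360, 1152 and 1275 bp downstream of the start site in the same order, and within 3 kb of it in 123 to 126 of the 166 members. Zfp genes numbered under 500 had median folds of 11.4, 11.4, 11.9 and 10.6 in that order. Other genes with 3 or more zinc finger motifs had 12.1, 11.8, 12.5 and 11.1.

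Members split by the KRAB box. A KRAB-like stretch, a letter pattern around the core of the A box searched in the longest protein of each gene, was found in 124 members. The pattern is approximate and missed Zfp708, a KRAB zinc finger protein known to bind RMER19B repeats. The KRAB-like members had a median of 11 finger motifs and the 78 others 7. Of the KRAB-like members 92 (74.2%) were marked in all 4 libraries, and of the others 68 (87.2%). The median covered share was 26.6%, 24.1%, 30.4% and 32.7% in CTR 1, CTR 2, NPM1 KD 1 and NPM1 KD 2 for KRAB-like members and 57.2%, 54.7%, 59.6% and 57.7% for the others, so the order was the same in each library. Their windows were of similar size, with medians of 22.2 kb and 18.2 kb. The lower peak height lay in the KRAB-like members, with median highest folds of 10.1, 9.25, 10.2 and 9.16 in the same library order. The others had 15.2, 14.2, 16.4 and 13.8, near the medians of all genes.

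**Figure D1:**
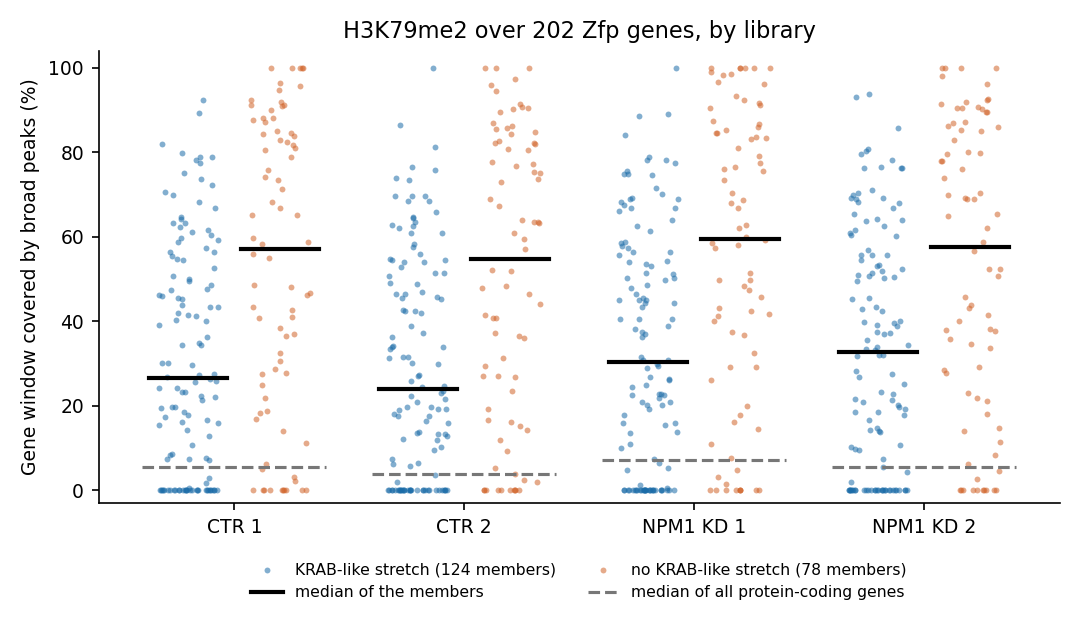
Share of each member's gene window under broad peaks (y axis, percent) in each of the 4 libraries (x axis), 1 point per member, blue for the 124 members with a KRAB-like stretch and orange for the 78 without. Black bars are medians over members (26.6% and 57.2% in CTR 1), and dashed lines are the medians of all protein-coding genes (5.50% in CTR 1).

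The mark began alike in both kinds and ended sooner in KRAB-like members. In members with a marked start site, the 1 kb bin from 1 to 2 kb downstream was 94.5% covered in the 85 KRAB-like members and 95.8% in the 62 others long enough to have it (means over the 4 libraries), against 93.5% in other genes. From 12 to 13 kb downstream the values were 31.0% (n = 64), 62.9% (n = 31) and 61.2% (n = 6345), counting at each distance only genes that reach it. At 24 kb they were 18.0% (n = 21), 69.6% (n = 17) and 51.0% (n = 4443). Upstream of the start, KRAB-like members also had the least coverage, as the plot of coverage by distance shows.

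The same difference held when each gene was measured by how far its start-site domain reached. The furthest downstream end of a broad peak touching the start site lay a median of 5.61, 5.24, 6.82 and 6.46 kb into KRAB-like members in CTR 1, CTR 2, NPM1 KD 1 and NPM1 KD 2, and 9.50, 8.26, 9.94 and 9.83 kb into the others. Among genes of 10 to 40 kb the mean reach had a median of 6.43 kb in 64 KRAB-like members, 10.1 kb in 27 other members and 9.01 kb in 3979 other genes. The domain ran past the annotated end of the gene in all 4 libraries in 1 of 85 KRAB-like members, 12 of 63 other members and 13.1% of other genes.

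**Figure D2:**
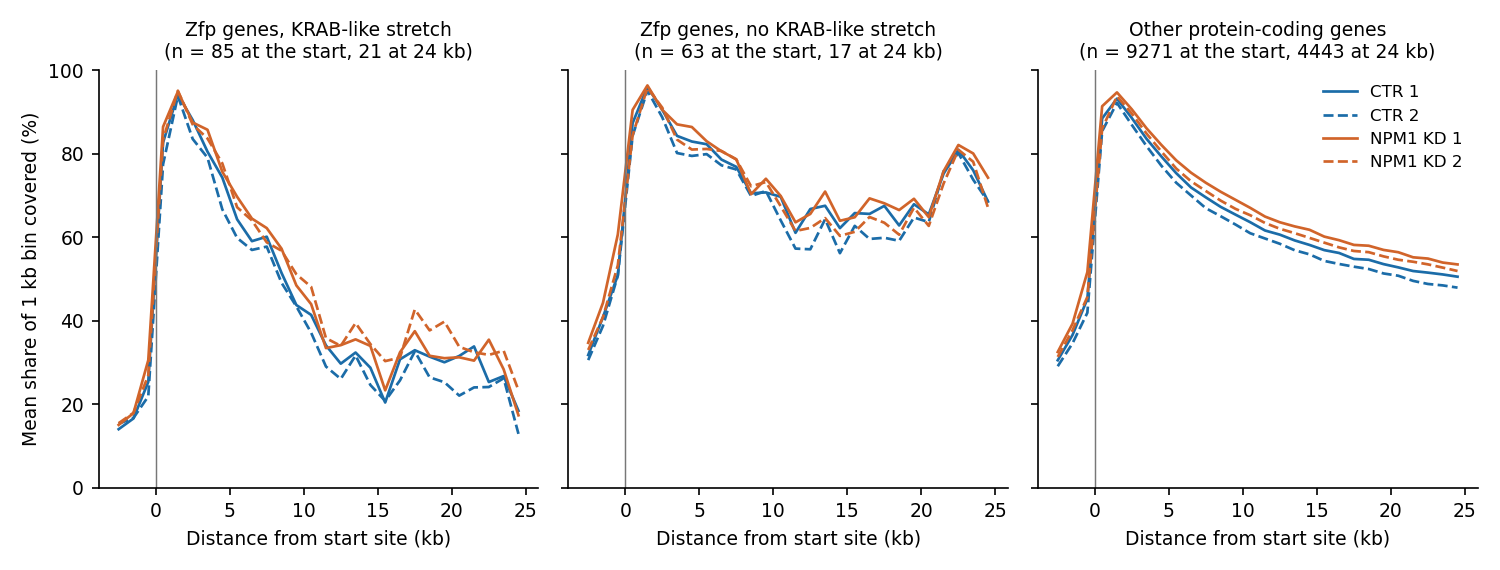
Mean share of each 1 kb bin under broad peaks (y axis, percent) by distance from the annotated start site (x axis, kb), for genes whose start site was marked in all 4 libraries, with 1 line per library (blue CTR, orange NPM1 KD; solid replicate 1, dashed replicate 2). All 3 panels rise to over 90% from 1 to 2 kb; the KRAB-like members fall to 31.0% at 12 kb, the other members to 62.9% and other genes to 61.2%.

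The zinc finger exon was mostly outside the domain. In 195 members the exon with the most finger motifs could be located, and in 163 of them it was the last coding exon, with a median length of 1369 bp and a median distance of 13.1 kb from the start site. A broad peak touched it in 64, 56, 67 and 64 members in CTR 1, CTR 2, NPM1 KD 1 and NPM1 KD 2. It was touched in all 4 libraries in 54 members (27.7%), covered whole in all 4 in 40, and untouched in every library in 125. The exon was touched in all 4 libraries in 14 of 122 KRAB-like members (11.5%) and in 40 of 73 others (54.8%). The 2 kinds differed in where the exon lies, at a median of 14.3 kb from the start in KRAB-like members and 9.5 kb in the others. It was the last coding exon in 120 of the 122 and 43 of the 73. The ranges of distance given below pool both kinds, so the part of distance in this gap was not tested. Of the 144 members that had both the exon and a marked start site, the start-site domain stopped short of the exon in every library in 95.

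The count fell with distance from the start site. With a marked start, exons within 5 kb of it were touched in all 4 libraries in 22 of 27 members (81.5%), those from 5 to 10 kb in 13 of 32 (40.6%), from 10 to 20 kb in 7 of 46 (15.2%) and from 20 to 50 kb in 6 of 31 (19.4%). The last coding exons of other protein-coding genes gave 76.0%, 39.4%, 24.0% and 16.7% at the same distances, and the zinc finger exons of other genes with 3 or more motifs 35 of 42, 22 of 55, 20 of 112 and 18 of 54. At a given distance the zinc finger exons of the members were thus marked about as often as ordinary last exons, with the largest gap from 10 to 20 kb. With so few exons in each range no order was read from the gaps. Whether these exons carried H3K9me3 in N2a cells was not measured here.

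**Figure D3:**
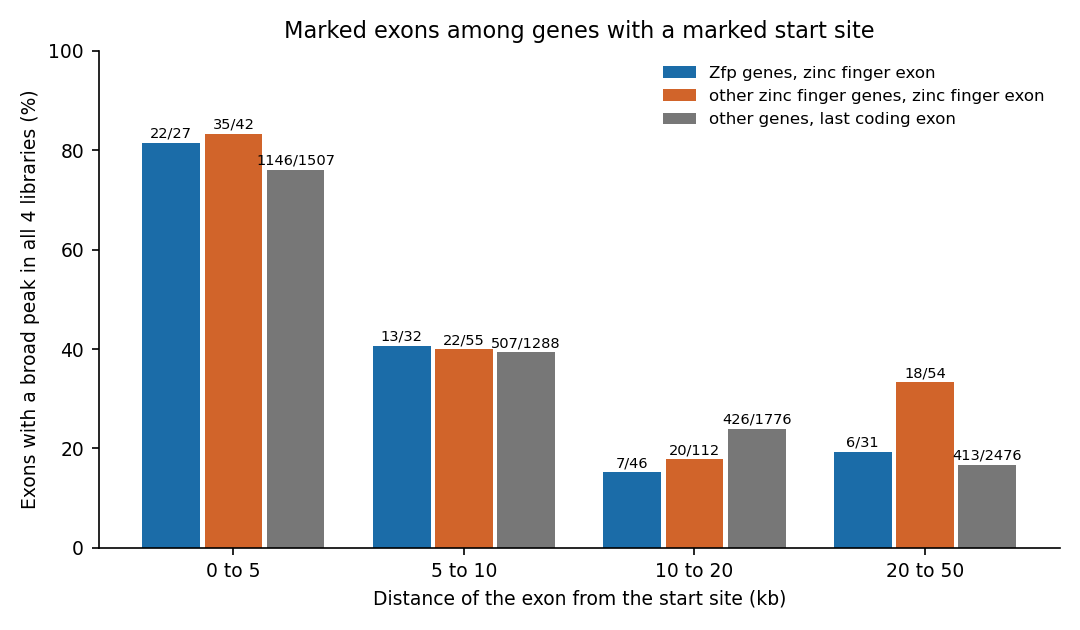
Share of exons touched by a broad peak in all 4 libraries (y axis, percent) by distance of the exon from the start site (x axis, kb), among genes with a marked start site, with counts above the bars. Blue bars are zinc finger exons of the members, orange bars those of other genes with 3 or more motifs, and grey bars the last coding exons of other genes; the members fall from 81.5% within 5 kb to 15.2% from 10 to 20 kb.

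A separate peak inside the zinc finger exon was rare. A narrow peak with its summit in that exon and no contact with the 3 kb either side of the start site was present in all 4 libraries in 6 of 195 members. These were Zfp608, Zfp609, Zfp689, Zfp746, Zfp672 and Zfp867. The fold was highest in Zfp608, at 6.67, 7.52, 7.01 and 5.71 in CTR 1, CTR 2, NPM1 KD 1 and NPM1 KD 2, and lowest in Zfp867, at 2.33, 2.66, 2.50 and 2.50. In Zfp609, a partner of the cohesin loader in neural progenitors, broad peaks ran through 95.8%, 97.3%, 98.6% and 98.1% of the window, so its exon peak stood within a broad domain and not apart from it. The same limit touches Zfp608, whose exon lay wholly under broad peaks in every library with 89.6% to 90.4% of the window covered, and Zfp672 and Zfp689, with means of 87.9% and 79.8% of the window. In Zfp867 the start-site domain reached 8.7 to 9.4 kb over the 4 libraries, past the near edge of its exon at 8.2 kb. Zfp746 is PARIS, the Parkin substrate, and had only 16.6% to 26.1% of its window covered.

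The members lie singly and in tandem. With at most 500 kb between neighbouring start sites, 81 members formed 9 clusters of 5 or more, 58 lay in groups of 2 to 4 and 63 stood alone. In all 4 libraries 61 cluster members (75.3%), 48 in small groups (82.8%) and 51 single members (81.0%) were marked, with median covered shares of 36.3%, 33.7% and 45.8%. That order rests on the distance chosen: at 200 kb, 54 cluster members had a median of 47.0% and 76 single members 42.5%. Within KRAB-like members the medians were 26.5% in clusters, 26.2% in groups and 33.0% alone, and within the others 59.2%, 46.6% and 57.6%.

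The clusters differed widely. The cluster at chr4:145510759-147848366 held 18 members, each of them KRAB-like, and 4 were marked in all 4 libraries while 14 were marked in none. Its marked members were Zfp933, Zfp985, Zfp984 and Zfp979, which lie among the last 5 start sites of the cluster together with the unmarked Zfp534. Zfp933 had 57.4%, 54.6%, 57.7% and 60.2% of its window covered in CTR 1, CTR 2, NPM1 KD 1 and NPM1 KD 2, and Zfp979 17.3%, 19.2%, 13.5% and 18.0%. In Zfp600, an unmarked member of the same cluster, no broad peak was present, and the narrow lists held a low peak in CTR 1 and NPM1 KD 2 only, with folds of 2.16 and 2.67. The remaining 184 members outside this cluster were marked in all 4 libraries in 84.8%.

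Of the 2 clusters on chromosome 17, the one at chr17:21383748-22867134 had 14 KRAB-like members, all marked, with shares from 2.01% in Zfp947 to 81.2% in Zfp948. The other, at chr17:32765496-33110705, had 6 of 7 marked, from Zfp811 with no peak to Zfp871 with 89.5%. In the 3 clusters of chromosome 7 the highest and lowest members were Zfp646 (100%) and Zfp764 (36.3%) at chr7:127233061-127885996, Zfp524 (89.9%) and Zfp579 (28.3%) at chr7:4915217-5053723, and Zfp715 (73.1%) and Zfp819 (no peak, as were Zfp975 and Zfp976) at chr7:42579783-43618285. All 10 members of the first and all 6 of the second were marked, and the second held no KRAB-like member, whereas 5 of 8 were marked in the third, where each was KRAB-like. The cluster at chr8:69209038-69791178 had 6 of 6 marked, from Zfp964 (18.3%) to Zfp869 (96.5%), which had the highest share of any KRAB-like member. At chr13:67038596-67687071 the highest was Zfp748 (51.3%) and the lowest Zfp595 (no peak), with 6 of 7 marked, and at chr9:22055411-22307648 Zfp809 (51.6%) and Zfp872 (no peak), with 4 of 5 marked.

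**Figure D4:**
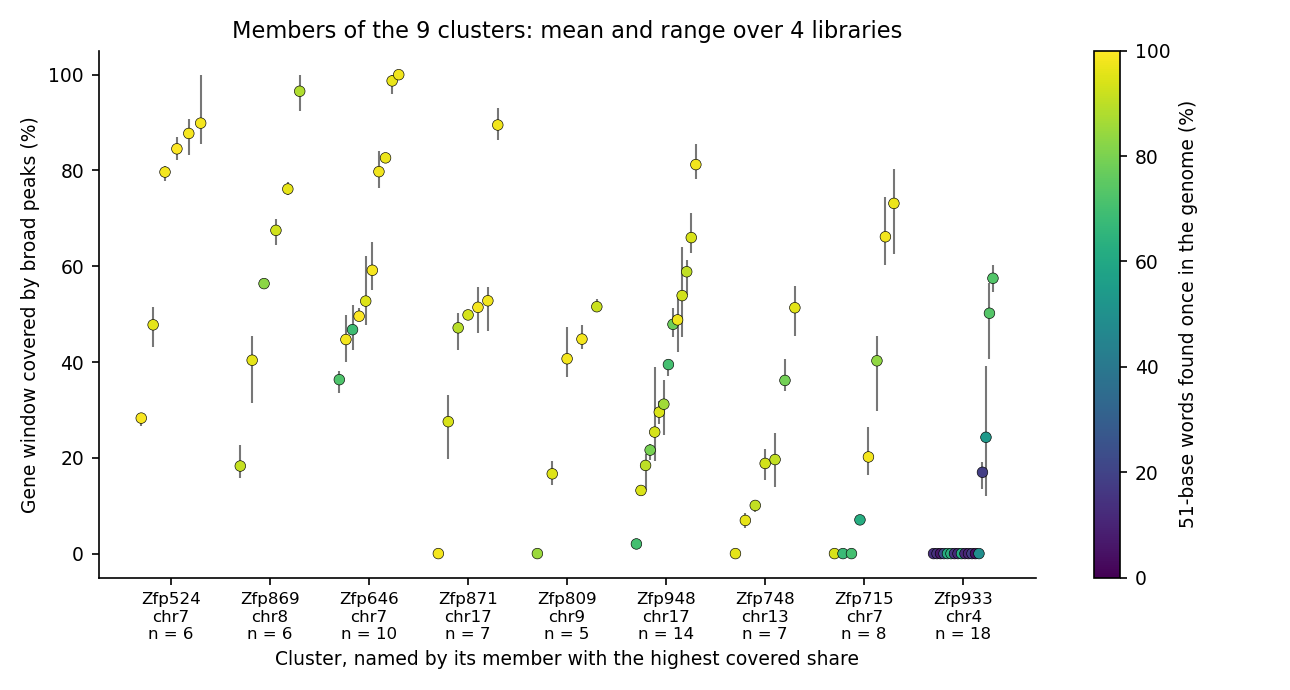
Share of the gene window under broad peaks (y axis, percent) for the members of the 9 clusters (x axis, each named by its highest member, with chromosome and number of members). Points are means over the 4 libraries, vertical lines run from the lowest to the highest library, and colour gives the share of 51-base words of the window that occur once in the genome. In the Zfp933 cluster on chromosome 4, 14 of 18 members lie at 0, and the median member there has 18.3% of such words.

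How far reads can be placed differed among members and moved with these counts. The reads were 51 bases long, so the share of 51-base words of a window that occur once in the genome was computed. Its median was 95.9% in the 160 members marked in all 4 libraries and 68.0% in the 39 marked in none. Of 136 members with at least 90% such words 118 (86.8%) were marked in all 4 libraries, of 39 between 50% and 90% 31 (79.5%), and of 27 under 50% 11 (40.7%). Among members with at least 90%, KRAB-like and other members were marked in near-equal shares, 55 of 64 (85.9%) and 63 of 72 (87.5%), while their median covered shares were 42.3% and 58.8%. In the chromosome 4 cluster the median was 18.3%, against 88.6% to 98.5% in the other 8. The part of read placement in these results was not tested.

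The pair of lists disagreed where copies are most alike. In the group of Zfp965, Zfp966, Zfp967, Zfp968 and Zfp969 on chromosome 2 no 51-base word of any window occurs once. None of the 5 had a broad peak in any library. The narrow lists, by contrast, covered 40.3% to 53.3% of each window in every library, with folds from 4.54 to 8.91. Of the 39 members with no broad peak, 7 had a narrow peak in all 4 libraries, namely these 5 with Zfp978 (5.99% of words unique) and Zfp981 (63.9%). They were picked out after their values were seen. The methods give a filter on mapping quality before peak calling, and its part in the difference between the lists was not tested. Only the broad peaks carry filtered in their names, so covered share and summit fold may rest on different reads.

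Promoter CpG was also lower at the median in unmarked members. It was 5 over the 29 of 39 with a matched promoter, against 13.5 over 136 of the 160 marked in all 4 libraries. Of 32 members with at most 5 CpG 14 (43.8%) were marked in all 4, of 45 with 6 to 10 40 (88.9%), of 48 with 11 to 20 45 (93.8%) and of 42 with more 37 (88.1%). Over all genes with a promoter the shares were 12.1%, 39.3%, 72.1% and 82.8%. At each of the 4 levels a larger share of the members was marked, and the gap was widest from 6 to 10 CpG. Among members, promoter CpG also moved with read placement. Its median was 5 over 19 promoters of members with under 50% of 51-base words found once. It was 16 over 112 promoters of members with at least 90%. The part of each in these shares was not tested. Of the promoters printed above, Zfp948 with 10 CpG had 81.2% of its window covered, as most members at its level were marked. Zfp819, a repressor known from pluripotent cells, went against the pattern, with 20 CpG and no peak.

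Genes next to a member can add to its window. In 34 members the window held the start of another coding gene, and 33 of these were marked in all 4 libraries, against 127 of the 168 without. Zfp750, known for driving epidermal differentiation, had 100%, 86.9%, 100% and 100% of its window covered, and it lies wholly within Tbcd. In the 150 members with under 1% of the window inside another coding gene, 111 (74.0%) were marked in all 4 libraries. Of the 5 members with the highest covered share, Zfp574, Zfp646, Zfp553, Zfp513 and Zfp609, each overlapped a neighbour. Zfp574 and Zfp646 were covered over 100% of the window in every library, Zfp553 over 95.9% to 100%, Zfp513 over 90.4% to 100% and Zfp609 over 95.8% to 98.6%. Zfp644, a partner of the H3K9 methyltransferases G9a and GLP, reached 94.5% to 96.2% with no other coding gene in its window.

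Of 36 members in a list with known roles, 30 (83.3%) were marked in all 4 libraries and 5 in none, where 79.2% of all members were marked in all 4. Zfp598 was covered over 81.7%, 80.6%, 83.7% and 80.1% of its window in CTR 1, CTR 2, NPM1 KD 1 and NPM1 KD 2. Zfp622, a factor of 60S ribosomal subunit maturation, had 92.0%, 90.7%, 92.3% and 91.4%, and the splicing factor Zfp830 38.4%, 37.3%, 41.2% and 35.8%. Zfp706, which acts in the exit of embryonic stem cells from self-renewal, had 85.0%, 80.7%, 85.3% and 85.1%. The CTR and NPM1 KD values overlapped in Zfp598, Zfp622 and Zfp830, and both NPM1 KD values of Zfp706 lay just above its higher CTR value. Zfp592, Zfp687 and Zfp532, which bind ZMYND8 together, had means of 67.2%, 74.5% and 54.6%. Zfp516, a factor of brown fat, had 92.3%, Zfp655 90.8% and Zfp787 94.3%. Zfp503 and Zfp703, a related pair of developmental repressors, had 37.0% and 58.4%. Zfp507, Zfp511 and Zfp768 had 80.1%, 78.3% and 44.7%.

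Among the KRAB zinc finger genes with a known target, Zfp809, which recognises the primer binding site of murine leukaemia virus, had 50.6%, 51.4%, 53.1% and 51.1% of its window covered in CTR 1, CTR 2, NPM1 KD 1 and NPM1 KD 2, and its zinc finger exon was uncovered in each. Zfp932, a regulator of endogenous retroviruses, had 64.7%, 63.5%, 66.8% and 69.1%, also with an uncovered exon. Zfp708 had 6.31%, 5.34%, 7.58% and 8.47%. Zfp617 (76.7%), Zfp719 (66.2%), Zfp867 (63.0%) and Zfp961 (53.5%) were further marked members (means of 4 libraries). A list of 22 KRAB partners held TRIM28, silencing factors that act beside it and the zinc finger genes Zfp57 and Zfp445. All 22 were marked in all 4 libraries, where 52.5% of all genes were, with a median covered share of 69.9%. Trim28 itself had 31.2%, 29.2%, 34.5% and 31.9%, and Setdb1, the H3K9 methyltransferase that TRIM28 recruits, had a mean of 17.6%.

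The members with neither a broad nor a narrow peak in any library included developmental regulators, neural ones among them. Zfp521, a regulator of neural progenitors and early B cells, Zfp536, a repressor of neuronal differentiation, and Zfp541, a meiotic factor of germ cells, had none. Likewise Zfp534, Zfp595, Zfp612, Zfp616, Zfp618, Zfp641 and Zfp648 had none, and Zfp618 stood out among them with 59 CpG in its promoter. Zfp800 and Zfp827, both long genes, were marked over 14.0% to 14.4% and 14.8% to 18.8% of their windows. In Zfp800, as in 11 other marked members, the annotated start site was outside any peak common to the 4 libraries, while its zinc finger exon, 153342 bp from that start, was covered whole in each.

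The second question was whether the knockdown of NPM1 changed the mark on these genes. Covered length was compared with limma on log2(covered bp + 1000) over all genes with at least 500 bp covered on average, with Benjamini-Hochberg adjustment over all genes. None of the 160 members tested passed an adjusted p of 0.05, the smallest being 0.24 (limma), where 0.00909% of the 10998 genes did. At an unadjusted p under 0.05, 14 members were wider in NPM1 KD and 1 in CTR, against 15.5% of all genes wider in NPM1 KD and 0.382% wider in CTR by the same rule. The median change was 0.08 on the log2 scale for the members and 0.08 for all genes. For the highest summit fold, centred on each library's median, none of the 166 members passed (0.146% of 10985 genes did), the smallest adjusted p was 0.12 (limma), and 10 members were higher and 3 lower in NPM1 KD at an unadjusted p under 0.05, where 4.21% of all genes were higher and 4.01% lower. With the replicate number as a block, Zfp524 alone among the members passed on summit fold (limma adjusted p = 0.0487), and 15 members were higher and 7 lower at an unadjusted p under 0.05, beside 763 and 885 of the 10985 genes. The summit of Zfp524 was not at the same site in CTR and NPM1 KD, as given below.

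Counted by order alone, the domains were more often wider in NPM1 KD, in the members as in all genes. Both NPM1 KD libraries exceeded both CTR libraries in covered length in 78 of the 163 members covered in any library (47.9%), where 47% of all 11518 genes did. The opposite order held in 3 members (1.84%), where 2.76% of all genes did. The count of 78 rose to 124 without CTR 1, which left CTR 2, with the shortest broad list, as the only control. With 2 libraries against 2 the smallest p an exact permutation test can give is 1 in 3, so no single gene was tested in this way. For summit fold after centring, 36 of 166 members were higher in both NPM1 KD libraries (17.1% of all genes) and 26 in both CTR libraries (24.2% of all genes). Without centring the split turned, to 22 higher in NPM1 KD (8.92% of all genes) and 36 higher in CTR (27.9% of all genes).

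The wider coverage lay on both sides of the start site. Over 19 bins of 1 kb, from 3 kb upstream to the bin that starts 15 kb downstream, both NPM1 KD libraries exceeded both CTR libraries in 15 bins in the KRAB-like members, 6 in the remaining members and 18 in other genes with a marked start, and no bin of these sets had the opposite order. Just upstream, from 1 kb before the start to the start, the members had 36.2% and 34.2% in CTR 1 and CTR 2 and 43.4% and 38.1% in NPM1 KD 1 and NPM1 KD 2. In KRAB-like members with a marked start, the bin from 8 to 9 kb was 51.5% and 49.1% covered in CTR 1 and CTR 2 and 57.3% and 56.8% in NPM1 KD 1 and NPM1 KD 2. At 1 to 2 kb the same members had 94.2%, 93.8%, 94.9% and 95.1%. Members with no KRAB-like stretch had 70.5%, 69.9%, 70.3% and 72.2% at 8 to 9 kb, and other genes 67.3%, 65.1%, 70.9% and 68.8%. In this bin the groups did not overlap in the KRAB-like members and other genes, and overlapped in the remaining members, while in the bin before it the KRAB-like members also overlapped, with 60.1% and 57.8% in CTR 1 and CTR 2 and 62.2% and 58.8% in NPM1 KD 1 and NPM1 KD 2. Whether the rise differed between these sets was not tested. In the zinc finger exon, 7 of 195 members had more of it covered in both NPM1 KD libraries and 1 in both CTR libraries. By the same count, other genes with 3 or more motifs gave 22 and 0 of 447, and Zfp genes numbered under 500 gave 15 and 0 of 152. Last coding exons of other protein-coding genes gave 334 and 53 of 20520. Zfp637 and Zfp568 had the zinc finger exon touched in both NPM1 KD libraries and in neither CTR library, and no member had the opposite. Zfp637, a gene with a short window, had 32.6% and 29.4% of the window covered in CTR 1 and CTR 2 and 41.8% and 41.5% in NPM1 KD 1 and NPM1 KD 2 (limma adjusted p = 0.257). Its exon was 100% and 24.4% covered in NPM1 KD 1 and NPM1 KD 2. Zfp719, Zfp715, Zfp748, Zfp691 and Zfp746 had more of the exon covered in both NPM1 KD libraries without a change of this kind, as in Zfp719 with 15.3% and 25.4% in CTR 1 and CTR 2 and 100% and 52.0% in NPM1 KD 1 and NPM1 KD 2. The opposite case was Zfp639, with 92.3% and 62.1% in CTR 1 and CTR 2 and 37.8% and 54.6% in NPM1 KD 1 and NPM1 KD 2. The 8 were picked out after exon values were seen.

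The members with the largest increase of covered length, among those whose groups did not overlap, were Zfp638, Zfp951, Zfp704, Zfp568, Zfp949 and Zfp944. Zfp638, an RNA-binding protein that silences unintegrated retroviral DNA, had 54313 and 51217 bp covered in CTR 1 and CTR 2 and 60654 and 63637 bp in NPM1 KD 1 and NPM1 KD 2. Its change was 0.23 on the log2 scale with a standard error of 0.0485 (limma adjusted p = 0.27). Zfp568, the repressor of the placental Igf2 promoter, had 25769, 25597, 29597 and 30910 bp in the same order (limma adjusted p = 0.249), and its zinc finger exon went from uncovered in both CTR libraries to 79.6% and 31.7% covered in NPM1 KD 1 and NPM1 KD 2. Both NPM1 KD values of Zfp568 lay clear of 2 near-equal CTR values.

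Zfp951 had 12927, 11495, 18695 and 16966 bp in CTR 1, CTR 2, NPM1 KD 1 and NPM1 KD 2, and Zfp949 7734, 5420, 11521 and 9721 bp. Zfp944, in the larger chromosome 17 cluster, had 12561, 11953, 15490 and 16910 bp. In Zfp704, a long gene covered over 75.2% to 79.2%, the lengths were 141212, 140005, 147386 and 144788 bp, a change of 0.05 on the log2 scale. In the other 3 the change was 0.51, 0.63 and 0.37 on the log2 scale for Zfp951, Zfp949 and Zfp944, and the limma adjusted p ran from 0.26 to 0.336.

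A domain that was near absent in CTR was seen in Zfp786 alone among the 3 members marked in some libraries only, which are named for that reason. Its covered length was 271 and 0 bp in CTR 1 and CTR 2 and 3911 and 3058 bp in NPM1 KD 1 and NPM1 KD 2, with narrow peaks of fold 2.80 and 3.21 in NPM1 KD 1 and NPM1 KD 2 and none in CTR. The limma adjusted p was 0.243. Zfp558 and Zfp831 were touched in CTR 1 and NPM1 KD 1 only, over at most 1.46% of the window.

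Both CTR libraries were wider in 3 members. Zfp973 had 3783 and 3281 bp in CTR 1 and CTR 2 and 2697 and 2801 bp in NPM1 KD 1 and NPM1 KD 2, and so fell by 0.27 on the log2 scale (limma adjusted p = 0.293), and 6.33% of its 51-base words occur once. Zfp790 had 10510, 10307, 10264 and 9959 bp, and Zfp947 724, 486, 304 and 485 bp, so the nearest CTR and NPM1 KD values of Zfp947 were 1 bp apart. The largest change of summit fold among the cluster members named here was in Zfp524, with folds of 9.16 and 9.71 in CTR 1 and CTR 2 and 17.7 and 15.2 in NPM1 KD 1 and NPM1 KD 2 (limma adjusted p = 0.124, and 0.0487 with the replicate block), while its covered share overlapped between the groups. Those folds do not belong to the same site. The summit lay 3198 and 3159 bp from the start in CTR 1 and CTR 2. In NPM1 KD 1 and NPM1 KD 2 it lay at 6307 and 6697 bp, past the end of this 4.074 kb gene. Of the 22 KRAB partner genes, 11 were wider in both NPM1 KD libraries, where 47% of all genes were, 2 were wider in both CTR libraries, where 2.76% of all genes were, and none passed either limma test.

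**Figure D5:**
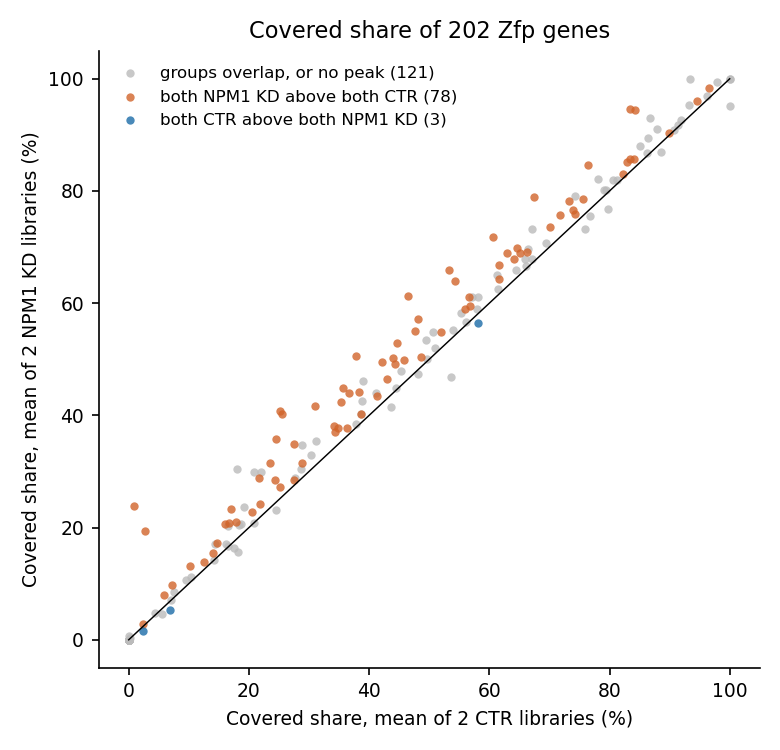
Mean share of the gene window under broad peaks in the 2 NPM1 KD libraries (y axis, percent) against that in the 2 CTR libraries (x axis, percent) for the 202 members, with the line of equality. Orange points are the 78 members whose NPM1 KD values both exceed both CTR values, blue points the 3 with the opposite order and grey points the rest; most orange points lie close above the line.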

How the data were processed

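Peak lists of 4 H3K79me2 libraries (CTR 1, CTR 2, NPM1 KD 1, NPM1 KD 2) were analysed. Per the labels and methods, the authors trimmed paired-end reads of 51 bases (Trimmomatic 0.38), aligned them to mm10 with Bowtie2 2.3.4.1, kept reads above a minimum mapping quality and called narrow and broad peaks per library with MACS2 (2.2.6 in the processing notes). Only the broad peaks carry filtered in their names, so whether both kinds of list passed the mapping quality filter is not known. Whether the inputs served as background in calling is not given in the sources used here. The deposited score of a peak is its −log10 q on a whole-number scale, the deposited fold is the ratio of pileup to background, and the −log10 p and −log10 q were deposited as MACS2 gave them. No read counts were analysed, so domain extent stands in for the read-based test of the study. The background pileup was solved from the fold and −log10 p of each narrow peak, which gave whole pileups for 100% of the solved peaks in 3 libraries.

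Genes came from GENCODE mouse release 21 on the same build. Finger motifs (C, 2 to 4 residues, C, 12 residues, H, 2 to 6 residues, H) and KRAB-like stretches were searched in translated coding sequences. The test of covered length used limma 3.58.1 under R 4.3.3 (pseudocount 1000 bp, at least 500 bp on average, threshold 0.05, no covariate), and summit fold likewise in genes with a narrow peak in all 4 libraries. On simulated data for covered length (10998 genes), 88 of 200 genes changed by 0.5 log2 units and 135 of 200 changed by 1 were called, with 31 false calls, and for summit fold (10985 genes) 40 and 140 of 200, with 15 false calls. The simulated noise was independent between libraries, with the spreads reassigned among genes at random. It thus held neither the pairing of replicates nor any link between level and spread, and the real rates may differ. Members that were tested had already passed the filters of each test. Alternatives were narrow lists, −log10 q of at least 5, equal list sizes, the gene body alone, other pseudocount, filter and centring, a replicate block, a cluster distance of 200 kb and each library left out. The p-values measure the spread between 2 libraries a group. Per the methods, each replicate was a separate passage and transfection batch, so the replicate number pairs the libraries, and same-numbered libraries deviated together (r = 0.292 for covered length and 0.197 for summit fold, across genes). Python 3.11.15, numpy 2.4.6 and pandas 2.3.3 were used.

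Genes were named by rule: calls, up to 6 per direction with the largest change of covered length among groups that do not overlap, the 5 highest shares, up to 10 without a peak, the highest and lowest of each cluster, a list of members with known roles, and up to 6 with a separate peak in the zinc finger exon. The members and lists were chosen with earlier results of these data known. Of the list of lineage markers, 1 gene is not reported here.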

Additional observations from a re-analysis of the deposited data

How the results depend on the processing

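Of 94 alternative values, 59 stayed close to the reported ones and 35 moved. The order of cluster and single members turned at a distance of 200 kb (47.0% and 42.5%, from 36.3% and 45.8%), and the split of summit fold turned without centring (22 higher and 36 lower members, from 36 and 26). The uncentred summit fold order was added after seeing the data. No member was called by limma on covered length under any of the 11 alternatives, the replicate block included (0 members, 0 of all genes). On summit fold the replicate block called 1 member, Zfp524, and 24 genes; leaving out 1 library at a time gave 0 to 4 members and 29 to 108 genes, with 4 members (Zfp524, Zfp647, Zfp821 and Zfp853) without CTR 2 and 2 (Zfp647 and Zfp821) without NPM1 KD 2, and 53 genes without CTR 1. A lone library is then assumed to vary like the other group. The pairing by replicate batch changed no other call among the members. In Zfp524, Zfp647, Zfp821 and Zfp853 the summit of the highest peak lay at different places between libraries, so their folds do not all belong to the same site.

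Over all genes the calls on covered length went from 1 to 23 at −log10 q of at least 5 and to 0 with narrow lists, equal list size, no filter or any library left out; on summit fold they went from 16 to 7 without centring. The members wider in both NPM1 KD libraries ranged from 89 to 124 over the left-out libraries, and those wider in both CTR libraries from 7 to 16 (3 with all libraries, 5 with narrow lists, 6 at −log10 q of at least 5). With a library left out, fewer values have to be in order.

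The median covered share of members fell to 30.2% in CTR (from 36.5%) and 34.9% in NPM1 KD (from 41.1%) at −log10 q of at least 5, and was 41.5% and 46.7% for the gene body alone. For cluster members it was 28.3% at −log10 q of at least 5 and 47.0% at a distance of 200 kb. For single members it was 40.5% with narrow lists, 37.7% at −log10 q of at least 5, 56.7% for the gene body alone and 42.5% at 200 kb. Leaving out a library gave 33.9% to 38.7% in CTR and 39.0% to 42.8% in NPM1 KD. The lists give no read depth, so a member without a peak was not detected at this depth.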
